A study of Mus musculus with 10 samples.

Results

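The Trp63 locus was described by every peak that the authors called on mouse chromosome 16 in the Trp63 gene span (25683763 to 25892088, mm10) and in 100 kb on each side of it, in 10 ATAC-seq libraries of thymic epithelial cells (TEC). ATAC-seq marks open chromatin by the insertion of sequencing adapters by a transposase. Of 882163 peaks in the 10 lists, 181 lay in this window, and they merged into 63 elements out of 351411 merged regions genome wide. Per the labels, all libraries came from sorted TEC of wild type C57BL/6 mice and hold nucleosome-free chromatin. The day 6 libraries, 2 of each sorted fraction, were labelled mTEC4, mTEC1 and mTEC2, and the embryonic libraries, 2 of each age, were taken at embryonic day 17 (E17) and 15 (E15). The fraction names stand in the titles without a definition, and the embryonic titles name no fraction. The peak names inside the lists use other tags, aTEC for mTEC4, eTEC for mTEC1, Hi for mTEC2 and hi for the embryonic libraries, so what the fractions are is not settled here and groups follow the titles. The labels do not say whether replicates came from separate animals, so p-values measure the spread between libraries. Because the day 6 and embryonic libraries differ in both age and sorting, the share of either in a difference cannot be told apart.

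Trp63 encodes p63, a transcription factor of the p53 family that stratified epithelia need for their basal progenitor cells. It is read from a pair of alternative promoters, which give TA forms with an amino-terminal transactivation domain and ΔN forms without it. The ΔN forms prevail in basal epithelial cells, and thymic epithelium without p63 forms a small thymus with poor renewal of its epithelial progenitors. In mouse the gene is read towards higher coordinates, with the TA promoter at its low-coordinate end and the ΔN promoter inside the gene. The gene table used here gives only a start and an end for each gene, so the ΔN promoter, exons and introns were not placed.

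The lists held 40858 to 101917 peaks in day 6 libraries and 86237 to 151646 in embryonic libraries. They carry no read counts, so read depth is unknown, and a site without a peak was not shown to be closed. Of 9 thymic epithelial marker genes, 6 to 9 had a called region within 10 kb in day 6 libraries and all 9 had one in each embryonic library. Their summed regions came to 18.8 to 36.1 per 100000 called regions in day 6 libraries and 35.2 to 43.7 in embryonic libraries. The missing ones were Krt5, Foxn1 and Psmb11 in mTEC4 replicate 1, Krt5 and Foxn1 in mTEC4 replicate 2, Krt5 in mTEC1 replicate 1, and Krt5 and Cldn4 in mTEC2 replicate 2. For 6 thymocyte and T cell markers the sums were 8.67 to 39.9 in day 6 and 14.6 to 18.9 in embryonic libraries. In day 6 libraries 4 to 6 of these 6 markers had a region, as in embryonic libraries, and Cd3e and Cd8a were the ones without a region in some libraries of each age. For 3 other leukocyte markers the sums were 9.02 to 18.8 in day 6 and 4.06 to 5.88 in embryonic libraries. All 3 had a region in each library apart from mTEC2 replicate 1 and both E17 libraries, where Adgre1 had none. For 3 mesenchyme markers they were 4.33 to 11.5 (1 or 2 with a region, Twist1 at 0 in every day 6 library and Col1a1 also in mTEC4 replicate 1) and 9.80 to 14.2 (all 3 with a region). Both endothelial markers had a region in every library, with sums of 4.99 to 12.9 in day 6 and 8.82 to 13.2 in embryonic libraries. The part of these cell types in the results at Trp63 was not tested.

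The day 6 lists held fewer called elements at Trp63, as they did in many gene windows. Most of the elements that recurred in embryonic lists lay inside the gene, whose span makes up 208326 of the 408326 bp of the window. Of the 63 elements, 38 lay inside the gene span, 17 below it and 8 above it. None was called in all 10 libraries, 1 was called in 9 and 1 in 8, while 29 were called in a single library. Genome wide 2.76% of regions were called in all 10 libraries. Single-library elements made up 46.0% of the window and 55.1% of regions genome wide. E17 replicate 2, the longest list, held 12 of the 29. In all 4 embryonic libraries 17 elements were called, 12 inside the gene, 2 below and 3 above it, and no element was called in all 6 day 6 libraries. Genome wide 65702 of 351411 regions were called in all 4 embryonic libraries, and the share called in all 6 day 6 libraries was not counted. The 17 and their places rest on the lists as deposited. With each list at its 40858 strongest peaks, 5 elements were called in all 4 embryonic libraries. These 5 were centred at -80.5, -59.4, 63.2, 96.4 and 118.1 kb from the low-coordinate end of the gene. Of the 17, the 12 inside the gene were centred 63.2 to 166.3 kb from its low-coordinate end. In the lowest 60 kb of the span there were 9 elements, and none of them was called in more than 3 embryonic libraries. The 17 recurrent elements were wider than the other 46, with a median merged width of 387 bp against 149 bp; the merged width spans the peaks of every list that called the element.

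**Figure D1:**
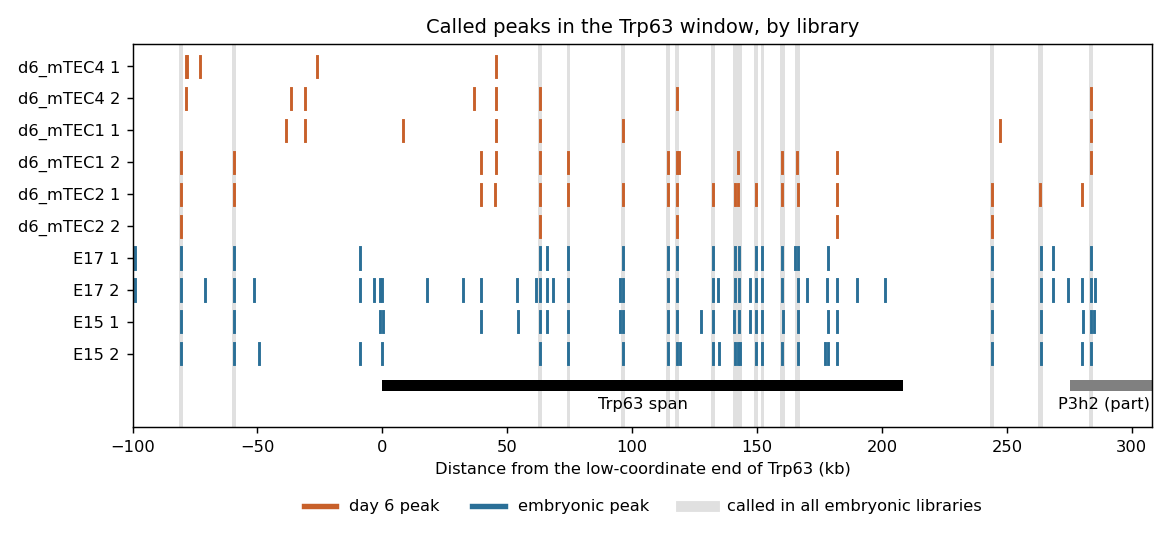
Called peaks in the Trp63 window, one row per library with day 6 above embryonic libraries, against distance in kb from the low-coordinate end of the gene. Each tick is the centre of a peak (tick width is not to scale), grey bands (widened to be visible) mark the 17 elements called in all 4 embryonic libraries, and bars show the Trp63 span and the part of P3h2 in the window; most recurrent elements lie 63.2 to 166.3 kb into the gene.

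The most widely called element lay inside the gene at 25746809 to 25747153, 63.2 kb from its low end, and was missing only from mTEC4 replicate 1. Its fold enrichment, the caller's ratio to background within a library, was 3.67 in mTEC4 replicate 2, 4.57 and 6.07 in mTEC1 and 4.38 and 3.29 in mTEC2. In embryonic libraries it was 9.81 and 12.4 in E17 and 11.3 and 12.1 in E15. The fold values are the authors', are relative to each library's own background and are given as a description. Ranked by −log10 q within each list, the element stood in the top 47.2% in mTEC4 replicate 2, the top 23% and 8.22% in mTEC1 and the top 21.5% and 48.2% in mTEC2. It stood in the top 7.11% and 4.02% in E17 and the top 3.22% and 3.12% in E15. It had the best rank of all window peaks in each of the 4 embryonic lists and in mTEC1 replicate 2. Ranks come from lists of different lengths, so a difference in rank between lists does not by itself show a change at the element.

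The element at 25801583 to 25802054, centred 118.1 kb into the gene, was called in 8 libraries. Its peaks had a fold enrichment of 3.95 in mTEC4 replicate 2, 5.30 in mTEC1 replicate 2, and 5.08 and 2.86 in mTEC2. In E17 the values were 7.55 and 7.07, and in E15 they were 9.09 and 7.65. It was not called in mTEC4 replicate 1 or mTEC1 replicate 1. Within the lists its peaks stood in the top 35.9% in mTEC4 replicate 2, the top 13.4% in mTEC1 replicate 2 and the top 16.4% and 60.8% in mTEC2, and in the top 6.12% to 14.6% in embryonic lists. The peaks were narrower in the day 6 lists, at 100 to 133 bp, than in embryonic lists, at 308 to 455 bp. Day 6 peaks were also narrower genome wide, with list medians of 106 to 135 bp against 185 to 200 bp in embryonic lists.

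Another strong element, at 25780023 to 25780316 (96.4 kb into the gene), was called in 2 day 6 libraries, with a fold enrichment of 3.62 in mTEC1 replicate 1 and 3.37 in mTEC2 replicate 1. In E17 it reached 7.85 and 11.0 and in E15 6.62 and 9.07. These 3 elements held the 3 best ranks of both embryonic ages. In the mTEC2 lists the third place went to an element outside the gene at 25602972 to 25603563, centred at -80.5 kb from its low end, with a fold enrichment of 3.90 in replicate 1 and 2.86 in replicate 2. That element was also called in mTEC1 replicate 2 (4.01) and in all embryonic libraries, at 6.35 and 7.74 in E17 and 7.25 and 7.12 in E15.

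The mTEC4 and mTEC1 lists placed other elements among their best. In mTEC4 the best rank belonged to an element at 25729022 to 25729249, 45.4 kb into the gene, with a fold enrichment of 4.72 and a rank in the top 13.9% in replicate 1. It was also called in mTEC4 replicate 2 (3.17), mTEC1 replicate 2 (2.75) and mTEC2 replicate 1 (3.27) and in no embryonic library. In those lists it ranked in the top 78.9%, 69.5% and 45.2%. At equal list length the element kept 1 of its 4 day 6 calls. With calls in 4 of 6 day 6 and 0 of 4 embryonic libraries, it had a two-sided Fisher's exact p of 0.0762 and an adjusted p of 0.12 over the genome. The second place in mTEC4 went to a peak of 76 bp at 25604976 to 25605051, below the gene, called in replicate 1 alone at a fold of 4.39. In mTEC1 the second place went to a peak of 65 bp at 25692022 to 25692086, 8.3 kb into the gene, called in replicate 1 alone at a fold of 5.52.

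**Figure D2:**
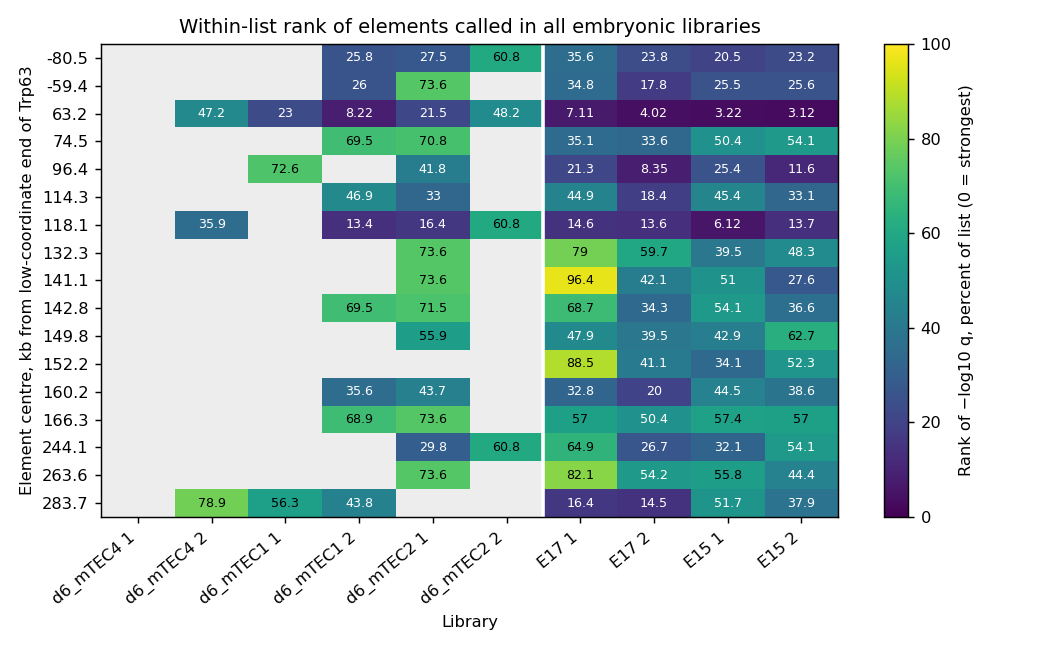
Within-list rank of −log10 q, as a percent of the list (0 is the strongest peak), for the 17 elements called in all 4 embryonic libraries (rows, by centre in kb from the low-coordinate end of Trp63) in each library (columns, day 6 left of embryonic). Pale grey cells had no called peak; the element at 63.2 kb ranks in the top 3.12% to 7.11% of the embryonic lists.

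The question asked of the whole window was whether day 6 TEC had fewer called regions at Trp63 than embryonic TEC. The mTEC4 libraries had 5 and 8 called regions, the mTEC1 libraries 8 and 14, the mTEC2 libraries 19 and 5, the E17 libraries 23 and 43 and the E15 libraries 29 and 26. All day 6 libraries lay below all embryonic libraries, with means of 9.83 ± 5.56 (SD, n = 6) and 30.25 ± 8.85 (SD, n = 4). The difference was -20.4 regions (exact two-sided permutation p = 0.00476, the smallest that 210 arrangements give), with an adjusted p of 0.0207 over 21774 windows of protein-coding genes (Benjamini-Hochberg). Passing in this direction was common: 47.2% of gene windows did and 2% passed the other way, and in 28.1% all day 6 libraries lay below all embryonic ones. Without E17 replicate 2 the difference was -16.2 (adjusted p = 0.0523, exact permutation) and without mTEC1 replicate 2 it was -21.2 (adjusted p = 0.0520, exact permutation).

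The sequence covered by peaks in the window was 520 and 1615 bp in mTEC4, 969 and 3420 bp in mTEC1 and 4479 and 631 bp in mTEC2. It was 6069 and 12853 bp in E17 and 8488 and 6237 bp in E15, so the groups did not overlap. Means were 1939 ± 1638 bp (SD, n = 6) at day 6 and 8412 ± 3160 bp (SD, n = 4) in embryonic libraries. The difference was -6473 bp (exact two-sided permutation p = 0.00476, adjusted p = 0.00673). For covered length 79.6% of gene windows passed in this direction and 2.61% in the other (80.3% and 3.18% by unadjusted p), and 72.3% separated the groups in this way.

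List length was taken out by giving regions per 100000 regions called in the same library. The values were 7.22 and 11.5 in mTEC4, 9.90 and 20 in mTEC1, 19.0 and 12.5 in mTEC2, 27.2 and 28.6 in E17 and 28.4 and 26.4 in E15. The embryonic values lay close together, the day 6 values were spread, and the groups did not overlap. Means were 13.4 ± 5.11 (SD, n = 6) at day 6 and 27.6 ± 1.05 (SD, n = 4) in embryonic libraries. The difference was -14.3 (exact two-sided permutation p = 0.00952) and did not pass after adjustment over all gene windows (adjusted p = 0.0856). At this measure 0% of gene windows passed in either direction, 17.6% had an unadjusted p under 0.05 with lower and 12.7% with higher values at day 6, and 8.53% separated the groups as Trp63 did. For the uncorrected count the unadjusted shares were 57.7% lower and 4.4% higher. With 210 arrangements, 2074 windows at the smallest p would be needed for an adjusted p under 0.05, and 1339 reached it.

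In this measure the Trp63 window stood near the low end of the genome. Its difference was lower than that of all but 1.03% of gene windows, whose median was -1.02. As a ratio of means, day 6 over embryonic, it was 0.483, against a median of 0.888 over 18751 windows with a mean of at least 5 regions, and 2.12% of them had a lower ratio. Both are descriptions of where the window stood.

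**Figure D3:**
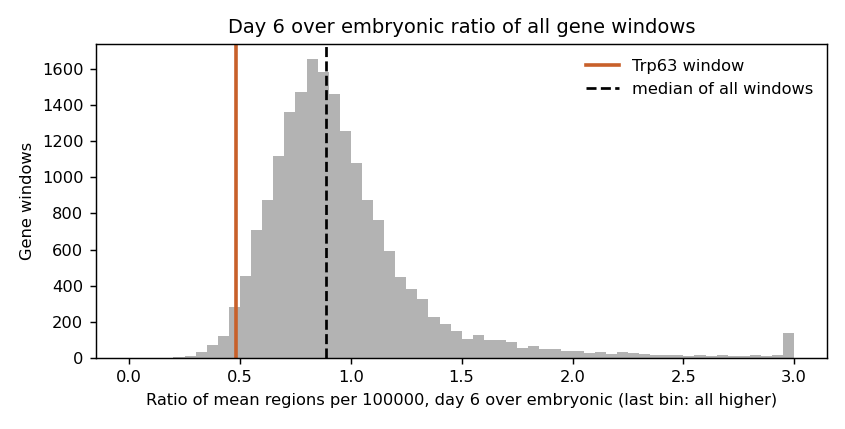
Number of gene windows (vertical) by the ratio of mean regions per 100000, day 6 over embryonic libraries (horizontal, bins of 0.05, the last bin holding all higher ratios). The solid line marks the Trp63 window at 0.483 and the dashed line the median of all windows at 0.888.

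When only the 40858 strongest peaks of every library were kept, which is the length of the shortest list, the window held 2 and 2 regions in mTEC4, 4 and 8 in mTEC1 and 6 and 5 in mTEC2. It held 9 and 11 in E17 and 7 and 11 in E15, so mTEC1 replicate 2 reached into the embryonic range. Means were 4.5 ± 2.35 (SD, n = 6) at day 6 and 9.5 ± 1.91 (SD, n = 4) in embryonic libraries. The difference was -5 regions (exact two-sided permutation p = 0.0190, adjusted p = 0.166 over 21746 gene windows). Here 0% of windows passed, 16.4% had an unadjusted p under 0.05 with lower and 5.24% with higher values at day 6, and 5.5% separated the groups with day 6 lower, which Trp63 did not. Without mTEC2 replicate 2, whose list is the shortest and sets the length, the difference was -10.1 (adjusted p = 0.0854, exact permutation). It shrank to -0.92 with the 20000 strongest peaks of each list (exact permutation p = 0.319).

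**Figure D4:**
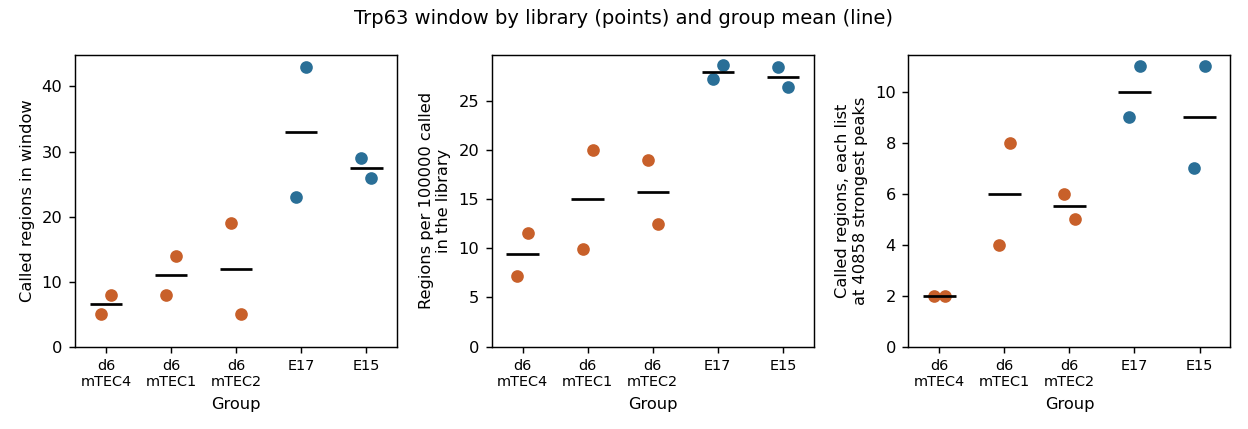
Called regions in the Trp63 window for each library (points) and group mean (lines), day 6 fractions left of embryonic ages, as counted (left), per 100000 regions called in the library (middle) and with every list at its 40858 strongest peaks (right). The embryonic libraries sit at 26.4 to 28.6 per 100000, above all day 6 libraries at 7.22 to 20.

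The day 6 libraries differed among themselves in how many of the 17 recurrent embryonic elements they held. The mTEC4 libraries held 0 and 3, the mTEC1 libraries 3 and 10 and the mTEC2 libraries 15 and 4. As a percent this was 0% and 17.6% in mTEC4, 17.6% and 58.8% in mTEC1 and 88.2% and 23.5% in mTEC2. The same libraries held 22.3% and 35.5%, 28.7% and 50%, and 65.6% and 34.7% of the 65702 regions that all 4 embryonic lists share genome wide. The window thus lay above the genome in mTEC1 replicate 2 and mTEC2 replicate 1 and below it in the other 4, which was not tested. These 2 libraries shared 9 of the 17 elements, and 6 of the 17 were called at day 6 in them alone. Both had a region at all 9 thymic epithelial markers, with sums of 35.7 and 36.1 per 100000. In mTEC2 replicate 2, the shortest list, which held 4 recurrent elements, 7 of the 9 markers had a region, with a sum of 34.9. The part of marker content or list length in these counts was not tested.

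In the upper part of the gene no day 6 list other than mTEC1 replicate 2 and mTEC2 replicate 1 called a recurrent element. Of the 7 recurrent elements centred 132.3 to 166.3 kb into the gene, those at 132.3, 141.1 and 149.8 kb were called at day 6 in mTEC2 replicate 1 alone, and those at 142.8, 160.2 and 166.3 kb in mTEC1 replicate 2 and mTEC2 replicate 1, while that at 152.2 kb had no day 6 call. The 6 elements with day 6 calls had folds of 2.68 to 3.48 there and 3.34 to 7.19 in the embryonic lists. The element at 160.2 kb (25843578 to 25844311) had folds of 3.48 in mTEC1 replicate 2 and 3.33 in mTEC2 replicate 1, against 5.90 and 7.19 in E17 and 4.97 and 5.61 in E15.

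In this window replicates of a day 6 fraction shared few elements. Both mTEC4 libraries held 1 of the 12 elements called in either, both mTEC1 libraries 2 of 20 and both mTEC2 libraries 5 of 19. The mTEC2 replicate 2 list held these 5 and no other. Both E17 libraries held 21 elements, of 23 and 43 called in them, and both E15 libraries 21, of 29 and 26. The overlap of replicates was not counted genome wide, so whether it is particular to this window was not tested. With 2 libraries a fraction, a test against the other 4 day 6 libraries cannot go below an exact p of 0.0667, and none was made.

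As deposited, the lists of the 2 ages were fully separated at 1 element. The element at 25835803 to 25836044, 152.2 kb into the gene and 242 bp wide, was called in 0 of 6 day 6 and 4 of 4 embryonic libraries. Its fold enrichment was 3.64 and 5.19 in E17 and 5.82 and 4.89 in E15, with ranks from the top 34.1% to the top 88.5% of the lists. It was the 1 of 23 window elements, among those called in 3 to 7 libraries, that passed Fisher's exact test (p = 0.00476, adjusted p = 0.0281 over 89811 regions genome wide). Genome wide 16.8% of tested regions passed in this direction and 0.173% in the other, so 1 of 23 was below the background. At an unadjusted p under 0.05, 9 of the 23 had more embryonic calls, against 47.4% genome wide, and none had more day 6 calls, against 1.19%. Without E17 replicate 2 or without E15 replicate 1 no window element passed, with an adjusted p of 0.0555 and 0.0513 for this one (Fisher's exact test). At equal list length it kept 1 of its 4 embryonic calls, and the element at 25780023 to 25780316 was then the 1 called in all 4 embryonic and no day 6 libraries. Without mTEC2 replicate 1, 5 window elements passed, and without E17 replicate 1 or E15 replicate 2, 2 passed.

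Of the 17 recurrent elements 5.88% had no day 6 call, against 22.9% of such regions genome wide. Apart from the elements at 63.2 and 118.1 kb, none of the 17 was called in more than 3 day 6 libraries. This is a description and was not tested.

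The low-coordinate end of Trp63 itself had weak calls. An element across it, at 25683615 to 25684144, was called in no day 6 library, in E17 replicate 2 at a fold of 2.91 and in E15 at 3.50 and 4.40. It ranked in the top 64% to 95.9% of these lists, which is in their weaker part. With calls in 0 of 6 day 6 and 3 of 4 embryonic libraries, Fisher's exact p was 0.0333 and the adjusted p 0.0981. A smaller element centred at -0.9 kb from that end, at 25682700 to 25683018, was called in E17 replicate 2 and E15 replicate 1 only.

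Above the gene, 3 elements overlapped P3h2, the nearest protein-coding gene on that side (25959284 to 26105813), which encodes a collagen prolyl 3-hydroxylase and begins 67195 bp above Trp63. The nearest gene below, Tprg, ends 260174 bp away, outside the window. The P3h2 element at 25967417 to 25967585 was called in mTEC4 replicate 2 (fold 3.17), both mTEC1 libraries (3.83 and 3.26) and all embryonic libraries (8.43 and 9.69 in E17, 4.87 and 5.83 in E15). Between the genes, elements at 25927781 to 25928026 and 25946910 to 25947742 were called in all embryonic libraries. At day 6 the first was called in both mTEC2 libraries (3.81 and 2.87) and the second in mTEC2 replicate 1 alone (2.68). The outermost elements in the window had 2 calls each and lay 1054 bp inside its low edge and 22930 bp inside its high edge. The nearest regions outside had 2 and 1 calls and lay 17412 and 15210 bp beyond the edges.

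E17 and E15 libraries shared the 17 recurrent elements, while 17 other elements were called in a single embryonic library and in no day 6 library, 12 of them in E17 replicate 2. Of the window elements, 2 were called in both E17 and neither E15 library, and 0 in both E15 and neither E17 library. The stronger of the 2, at 25952130 to 25952283 between Trp63 and P3h2, had folds of 5.36 and 8.87 in E17, while the other, at 25584817 to 25584928, lay at the low edge. A test of 2 against 2 libraries cannot go below an exact p of 0.333, and none was made. Regions split between E17 and E15 in this way were not counted genome wide, and the embryonic lists differ in length. Whether the counts of 2 and 0 are particular to this window or go with age was therefore not tested.

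The median fold enrichment of the window's peaks was 2.87 to 4.01 in day 6 lists, whose overall medians were 3.26 to 3.89. In embryonic lists it was 4.36 to 4.89, against overall medians of 4.67 to 5.01. It lay furthest below the list median in mTEC2 replicate 2 (2.87 against 3.33) and mTEC4 replicate 2 (3.19 against 3.64). It lay above the list median in both mTEC1 libraries, mTEC2 replicate 1 and E15 replicate 1. Median width was 99.5 to 245 bp at day 6, against list medians of 106 to 135 bp, and 182 to 220 bp in embryonic lists, against 185 to 200 bp. Few window peaks were among the strongest 10% of a list, with 1 in mTEC1 replicate 2 and none in the other day 6 lists, 1 and 2 in E17 and 2 and 1 in E15. The share of window regions inside the gene span was 20% and 50% in mTEC4, 50% and 78.6% in mTEC1, 73.7% and 60% in mTEC2, 65.2% and 65.1% in E17 and 72.4% and 69.2% in E15. Means were 55.4 ± 21.0% (SD, n = 6) at day 6 and 68.0 ± 3.51% (SD, n = 4) in embryonic libraries, a difference of -12.6 percentage points (exact two-sided permutation p = 0.290). With 10 kb on each side of the gene instead of 100 kb the difference turned to 6.43 points (exact permutation p = 0.00476). No day 6 list had a call in these narrow flanks, so all its regions lay inside the gene, while each embryonic list had a flank call. The p-value reflects these embryonic flank calls and shows no move of day 6 calls into the gene.

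Other genes of the p63 programme were counted in the same way, in windows of 100 kb on each side. The list held 46 genes: the family members Trp53 and Trp73, 15 regulators and cofactors, 4 basal keratins, 15 adhesion genes and 10 signalling and cell cycle genes. Per 100000 regions, 0 of 46 passed the exact permutation test adjusted over all gene windows, as 0% of the genome did, with a smallest adjusted p of 0.0774. At an unadjusted p under 0.05, 18 of 46 (39.1%) had lower and 0 had higher values at day 6, against 17.6% and 12.7% of all windows. The median difference over the list was -5.32, against -1.02 over all windows, and 40 of 46 differences were below 0. By uncorrected counts 35 of 46 (76.1%) passed with lower values at day 6 and 0 with higher values, against 47.2% and 2% of all windows.

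The 5 genes with the largest differences were Dst, Cdh1, Fgfr2, Lama3 and Krt14. Dst, which encodes a plakin that ties keratin to hemidesmosomes, had 29.9 ± 9.13 regions per 100000 at day 6 and 48.5 ± 1.82 in embryonic libraries (SD, n = 6 and n = 4). Cdh1, which encodes E-cadherin, had 25.6 ± 7.12 at day 6 and 42.2 ± 4.33 in embryonic libraries. For Fgfr2, the receptor for epithelial FGF signals, the values were 9.99 ± 4.08 at day 6 and 23.4 ± 1.82 in embryonic libraries. Lama3, which encodes a laminin chain of the epithelial basement membrane, had 20.2 ± 4.35 at day 6 and 32.9 ± 2.52 in embryonic libraries, and the basal keratin gene Krt14 had 11.5 ± 2.55 and 23.3 ± 2.02. In each of these 5 genes all day 6 libraries lay below all embryonic ones, and the adjusted p was 0.0774 to 0.0856 (exact permutation), so none passed. With peaks of −log10 q of at least 2 the Cdh1 difference was -5.77 (exact permutation p = 0.290), against -16.6 with all peaks.

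By role, all 4 basal keratins had an unadjusted p under 0.05 with lower values at day 6. The windows of Krt14, Krt15 and Krt17 overlap and share regions. Of the adhesion genes 6 of 15 did, of the signalling and cell cycle genes 5 of 10, of the family 1 of 2 and of the regulators and cofactors 2 of 15. Trp73, the family member closest in use of alternative promoters, had 19.6 ± 6.25 at day 6 and 29.1 ± 3.15 in embryonic libraries (exact permutation p = 0.0333, adjusted p = 0.135). Trp53 had 21.3 ± 5.63 and 23.2 ± 3.50 (exact permutation p = 0.571). The regulators were the most mixed, with 10 lower and 5 higher, among them Satb1, a chromatin organiser, at 12.5 ± 2.92 at day 6 and 9.24 ± 2.13 in embryonic libraries (exact permutation p = 0.105).

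The genes whose windows varied most like Trp63 over the 10 libraries, by Pearson's r of regions per 100000, were Krt71, a keratin gene of the hair follicle (r = 0.994), Trerf1 (0.991), Ccdc172 (0.990), 7530416G11Rik (0.989) and Aagab (0.985). They were taken from 18744 windows with a mean of at least 5 regions and more than 1 Mb from Trp63. Over these, 738 windows had an r above 0.9 and the median was 0.357. The libraries share their list length and age among all windows, and no p is given. Krt71 had 5.25 regions per 100000 at day 6 and 11.2 in embryonic libraries, and Ccdc172 had 4.48 and 14.2.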

How the data were processed

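The submitters' processing notes name mm10 and the tools MACS2, Picard, Bowtie2 and cutadapt. Their settings, and any shift of reads for the transposase, are not given in the sources used here. Each library has its own deposited list of broad peaks, so replicates were not pooled. Each deposited peak has a score (not used), a fold enrichment (a ratio to background within the library) and −log10 p and −log10 q values from the authors' caller, with −log10 q never below 1.0002. Overlapping or touching peaks of the 10 lists were merged, and any peak of a library in a merged region made it called there. Windows were gene spans with 100 kb on each side, from a RefSeq table of GRCm38.p6 (21883 protein-coding genes). In ranks, tied peaks share the better rank. Permutation tests compared 6 day 6 with 4 embryonic libraries. Scripts (Python 3.11.15, NumPy 2.4.6, pandas 2.3.3, SciPy 1.17.1) were tested on simulated data. Named were genes overlapping or flanking the window, list genes past the test or otherwise the 5 with the largest differences, the 5 genes most like Trp63, elements that separated the ages and the 3 best-ranked elements of each group; other elements and Trp53, Trp73 and Satb1 were named after their values were seen. A marker gene of the leukocyte list is not reported here. The locus, lists and tests were chosen with earlier results of these data known. Counts were also made with other windows, q limits, merging rules, list lengths and left-out libraries.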

Additional observations from a re-analysis of the deposited data

How the results depend on the processing

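The direction of the 4 window measures held under every alternative run. The difference in called regions ran from -22.8 to -16.2 with 1 library left out, that in covered length from -7254 to -4992 bp, that per 100000 from -15.6 to -13.1, and that at equal list length from -10.1 (without mTEC2 replicate 2, which makes the shortest list longer) to -4.5. The share inside the gene span ran from -17.3 to -5.54 points. Without both the shortest and the longest list, a setting chosen after seeing the data, the difference in called regions was -15.2 (adjusted p = 0.106, exact permutation over fewer arrangements). Per 100000 regions the Trp63 difference passed with peaks of −log10 q of at least 5 alone (-21.9, adjusted p = 0.0473, exact permutation), and at equal list length it passed where peaks had to cover 50% of a region (-6.67), but shrank to -0.92 with the 20000 strongest peaks of each list, -0.5 with −log10 q of at least 5 and -1.5 with at least 2 (exact permutation p = 0.319, 0.133 and 0.0619). The share inside the gene turned to 6.43 points with 10 kb flanks, where no day 6 list had a call outside the gene. It turned to 37.3 with −log10 q of at least 5 and 4.62 with at least 2. With at least 5 the day 6 side was 1 peak of mTEC1 replicate 2, as the other day 6 lists held none in the window. The number of window elements past Fisher's test, 1, was 0 to 5 with 1 library left out, 7 with −log10 q of at least 5 or at least 2, 2 with merging across 200 bp, 6 with 50% coverage, 0 with all regions tested and 2 without the shortest and longest lists. The 7 elements at −log10 q of at least 5, and the pass per 100000 regions at that limit, rest on window peaks that nearly all came from embryonic lists. The p63 list had 8 genes past the test with −log10 q of at least 5 and 12 with 50% coverage; its windows lower at day 6 by unadjusted p, 18, were 11 with −log10 q of at least 5, 12 with at least 2 and 28 with 50% coverage. The causes were not tested. With labels permuted only within a replicate number (replicate block, 100 arrangements) the differences were the same and 0 elements passed. The called regions kept an adjusted p of 0.0394 (exact permutation). Deviations of same-numbered libraries correlated from -0.253 to 0.289 between groups. With 2 libraries a group these values cannot decide whether the numbers pair the libraries. Covered length does not depend on merging or on 50% coverage, and these were not run for it. Unknown depth limits all comparisons of presence.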

Other observations

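Strong peaks in the Trp63 window, with −log10 q at 5 or above, came from embryonic libraries apart from 1. The day 6 lists held 0 and 0 in mTEC4, 0 and 1 in mTEC1 and 0 and 0 in mTEC2, and the embryonic lists 11 and 18 in E17 and 8 and 11 in E15. Peaks this strong made up 6.33% to 14.3% of the day 6 lists and 41.7% to 48.8% of the embryonic lists as a whole. Of the calls in mTEC4 replicate 1, all 5 lay in elements that no embryonic library held, and 4 of them were in that library alone. Genome wide this list held 22.3% of the regions that all 4 embryonic lists share, and 55.1% of all regions were called in a single library. The share of this list's regions that no embryonic library held was not counted genome wide.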
